A study of Mus musculus with 4 samples.

Results

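The genes described here are 42 mouse genes of autophagy and lysosome biogenesis, listed by name for a known role, with earlier results of these data in view, and 40 of them were measured among the 18193 genes tested. A member was measured where a probe set carried its symbol and no other, and the probe set with the highest mean over the 4 arrays stood for the gene. No expression difference entered the choice of probe set. Bnip3l was left out because its 3 probe sets also carry the symbol of a pseudogene, and Optn had no probe set under the rule and is not analysed here. RNA came from bone marrow of 8-week-old C57BL/6 mice. Flow cytometry sorted the c-Kit+ Sca-1+ cells free of lineage markers, a gate of blood stem cells and multipotent progenitors. There were 2 arrays labelled WT and 2 labelled Alox15-/-, the second named for a deletion of the gene of arachidonate 15-lipoxygenase. The labels do not say which cells the deletion covers, how it was made, whether the WT mice were littermates, or whether animals were pooled. The replicates are called biological, but no animals are named, so a p-value measures the spread between these arrays, which may be partly technical.

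Autophagy encloses cytoplasm in a double membrane and delivers it to lysosomes for digestion. A kinase complex starts the process, a lipid kinase complex marks the membrane, lipid transfer proteins feed it, and a pair of ubiquitin-like conjugation systems attach ATG8 proteins (the LC3 and GABARAP families) to it. Receptors tie cargo to ATG8, and the transcription factors Tfeb and Tfe3 raise both autophagy and lysosome genes when they enter the nucleus. Blood stem cells are known to depend on autophagy, which clears active mitochondria and limits their metabolism. Much of this control acts on proteins, which expression arrays do not read.

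Alox15 itself went against its label. It read 4.63 and 4.35 on the WT arrays and 10.68 and 10.75 on the arrays labelled Alox15-/-, a log2 difference of 6.22 ± 0.15 (SE, n = 2 each, limma adjusted p = 0.00131). The sources used here give neither the deleted part nor the probe set's place, so its signal need not test the deletion. Whether the labels are exchanged or a transcript of the deleted gene remains cannot be told apart from these values. Every direction below is that of the arrays as labelled, and exchanged labels would turn the sign of each. In the WT arrays it lay below the highest of 27 probe sets for bacterial transcripts, which read 4.95 to 5.17 and serve as the background. Set against that control, the signal under the Alox15-/- label was at least 53.5-fold higher, and the fitted difference and its SE hold only for the values as deposited. All 40 members lay above that control on all 4 arrays. Kit, the receptor used in the gate, averaged 10.56 in WT against 10.29 in those labelled Alox15-/-. Of the lineage marker list, Cd3e and Cd5 lay below the bacterial control on every array, whereas Cd4, Cd8a, Itgam and Ptprc lay above it. Ptprc encodes CD45, of which only the B220 form is a lineage marker. The sources used here do not say which form its probe set reads, so its level does not show lineage cells. Itgam read 6.22 and 6.08 in WT against 5.50 and 5.78 in those labelled Alox15-/-. Of the 6 measured genes of the lineage marker list, Ptprc among them, 4 were negative and 2 positive. Sca-1, encoded by Ly6a, was not analysed here. Every pair of arrays had a Pearson's r of 0.986 to 0.990 across probe sets, which are no independent replicates. The Gapdh control probe sets for the transcript's ends differed by 2.37 and 2.39 in WT against 2.14 and 2.17 in those labelled Alox15-/-, so this measure of RNA ends separated the groups. For Actb the same measure was -0.23 and -0.19 in WT against -0.13 and -0.28 in those labelled Alox15-/-, with overlap. The part of the Gapdh gap in the differences below was not tested.

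No difference of an autophagy or lysosome gene between the groups was called. No member passed the threshold of 0.05 for the limma adjusted p, which ran from 0.575 to 0.994, and the threshold was passed by 0.00550% of all genes, Alox15 alone. At an unadjusted limma p under 0.05 there were 4 of 40 members (10%), 3 higher and 1 lower, against 7.77% of all genes (4.20% higher and 3.57% lower). These were Wipi1, Atg9a and Ctsd on the higher side and Pik3c3 on the lower. The count of 4 was 7 without WT replicate 1, beside 8.7% of all genes in that fit, and 1 without WT replicate 2, beside 7.33%. It was 3 without Alox15-/- replicate 1, beside 4.86%, and 1 without Alox15-/- replicate 2, beside 5.41%.

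The median difference of the 40 members was -0.02 on the log2 scale, beside 0.02 for all genes, and 17 were positive and 23 negative (57.5%), while 46.2% of all genes were negative. The median absolute difference was 0.11, beside 0.14 for all genes, and 3 members (7.5%) differed by more than 0.5, beside 6.10% of all genes. The groups did not overlap for 18 members (45.0%), 10 with both arrays labelled Alox15-/- above both WT arrays and 8 with both below, while 38.5% of all genes did not overlap (21.4% higher and 17.1% lower). The interval around each difference shows what 4 arrays can bound. The 95% limma interval lay within 1 log2 unit either side of 0, a 2-fold change, for 35 of 40 members, and within 0.5 for 12, and its median half-width was 0.39. Over all genes, 91.4% lay within 1. A 2-fold change in either direction thus lay outside the interval for those 35, while the intervals of 36 members included 0.

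**Figure D1:**
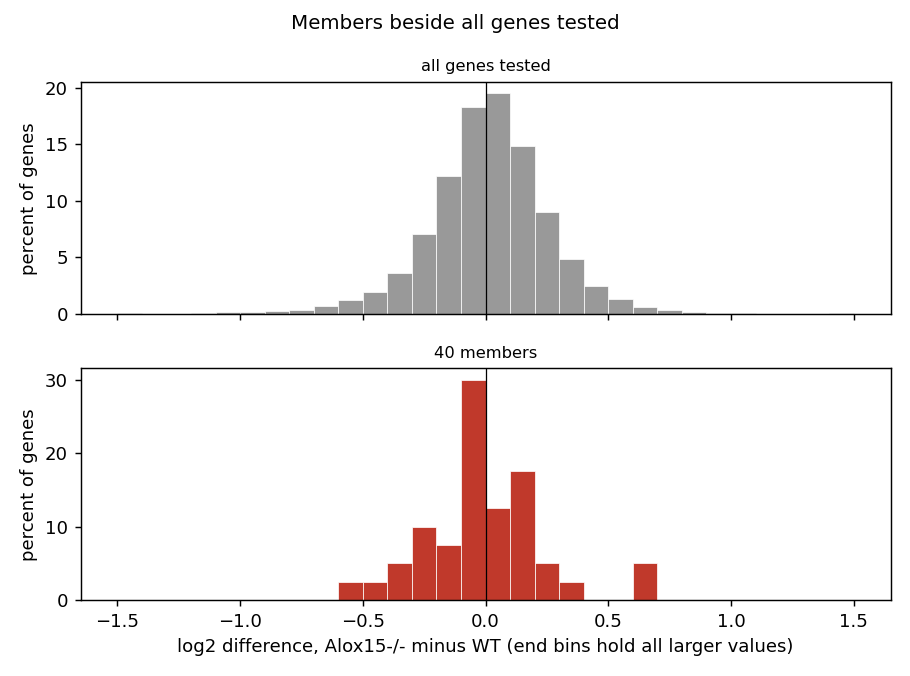
Share of genes (percent, vertical axes) in bins of 0.1 of the log2 difference, Alox15-/- minus WT (horizontal axis), for all 18193 genes tested above and the 40 members below. Both distributions centre near 0, with medians of 0.02 and -0.02, and 3 members lie beyond 0.5 in either direction.

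The initiation complex phosphorylates the first autophagy proteins and recruits the rest. Its kinase gene Ulk1 read 9.43 and 9.90 in WT against 9.46 and 9.39 in those labelled Alox15-/-. WT replicate 2 stood above the other arrays, which were nearly equal, and the difference was -0.24 ± 0.19 (SE), with 0.45 at the other Ulk1 probe set. The paralogous kinase gene Ulk2 read 8.85 and 9.21 in WT against 9.11 and 8.92 in those labelled Alox15-/-, with overlapping groups and a difference of -0.02. Rb1cc1, the large scaffold FIP200, showed the same single high array, with 8.58 and 9.07 in WT against 8.70 and 8.75. The difference was -0.10, with 0.06 and 0.40 at its other probe sets. The adaptor gene Atg13 read 7.79 and 7.85 in WT against 7.75 and 7.55 in those labelled Alox15-/-, without overlap, and differed by -0.17. The other Atg13 probe sets gave 0.10 and 0.28, the last of them below the bacterial control on every array. Its partner Atg101 differed by 0.05 (95% interval -0.27 to 0.36). In all, 4 of the 5 genes were negative and 1 positive, with a median of -0.10, and 0 had an unadjusted limma p under 0.05. Without WT replicate 2 that median was 0.06.

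The class III PI3-kinase complex makes the lipid that marks autophagy membranes. Its catalytic subunit gene Pik3c3, also known as Vps34, read 9.69 and 9.92 in WT against 9.49 and 9.31 in those labelled Alox15-/-. Both WT arrays lay above both others. The difference was -0.41 ± 0.15 (SE, n = 2 each), or 1.33-fold lower, with limma adjusted p = 0.632 and a 95% interval of -0.80 to -0.02. Without WT replicate 2 it was -0.29 and without Alox15-/- replicate 2 it was -0.32. The regulatory subunit gene Pik3r4, the partner of Pik3c3 in every form of the complex, did not show this order. It read 9.68 and 9.79 in WT against 9.70 and 9.73 in those labelled Alox15-/-, a difference of -0.02 with a 95% interval of -0.35 to 0.31. Becn1, the scaffold Beclin 1, differed by 0.15, Uvrag, the subunit of the endosomal form, by -0.07, and Ambra1, a Beclin 1 partner, by 0.13, all with overlapping groups. Atg14, the subunit that directs the complex to autophagy, read 6.72 and 6.45 in WT against 6.84 and 6.91 in those labelled Alox15-/-. The groups did not overlap, and the difference was 0.29 ± 0.15 (95% interval -0.09 to 0.68), or 0.15 without WT replicate 2. The 6 genes were 3 positive and 3 negative, with a median of 0.05, which was 0.23 without WT replicate 1.

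Genes of membrane supply held the widest differences of the members. Atg9a, a lipid scramblase carried on small vesicles that seed the membrane, read 7.41 and 7.21 in WT against 7.81 and 8.04 in those labelled Alox15-/-. Both arrays labelled Alox15-/- stood above both WT arrays. The difference was 0.62 ± 0.16 (SE, n = 2 each), 1.54-fold, with limma adjusted p = 0.575 and a 95% interval of 0.23 to 1.01. It ran from 0.50 to 0.74 when any 1 array was left out. Wipi1, which binds the lipid made by Pik3c3, read 6.84 and 6.56 in WT against 7.22 and 7.46 in those labelled Alox15-/-, again without overlap. Its difference was 0.64 ± 0.17, 1.56-fold, with limma adjusted p = 0.575 and a 95% interval of 0.21 to 1.07. The other 5 probe sets of Wipi1 gave 0.00 to 0.41, and the mean of all its probe sets 0.22. The probe set at 0.41 lay above the bacterial control on only 3 arrays. The paralog Wipi2 differed by -0.02 with overlapping groups.

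Of the lipid transfer genes, Atg2a read 7.49 and 8.14 in WT against 7.42 and 7.11 in those labelled Alox15-/-. The groups did not overlap, but WT replicate 1 lay close to Alox15-/- replicate 1, and the spread was wide. The difference was -0.55 ± 0.25, with a 95% interval of -1.19 to 0.09, and it was -0.23 without WT replicate 2. Atg2b differed by 0.11 ± 0.14, and by -0.89 at its second-highest probe set. Of the 5 genes of membrane supply, 3 were positive and 2 negative, with a median of 0.11, and 3 differed by more than 0.5. Without WT replicate 2 the median was 0.19.

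**Figure D2:**
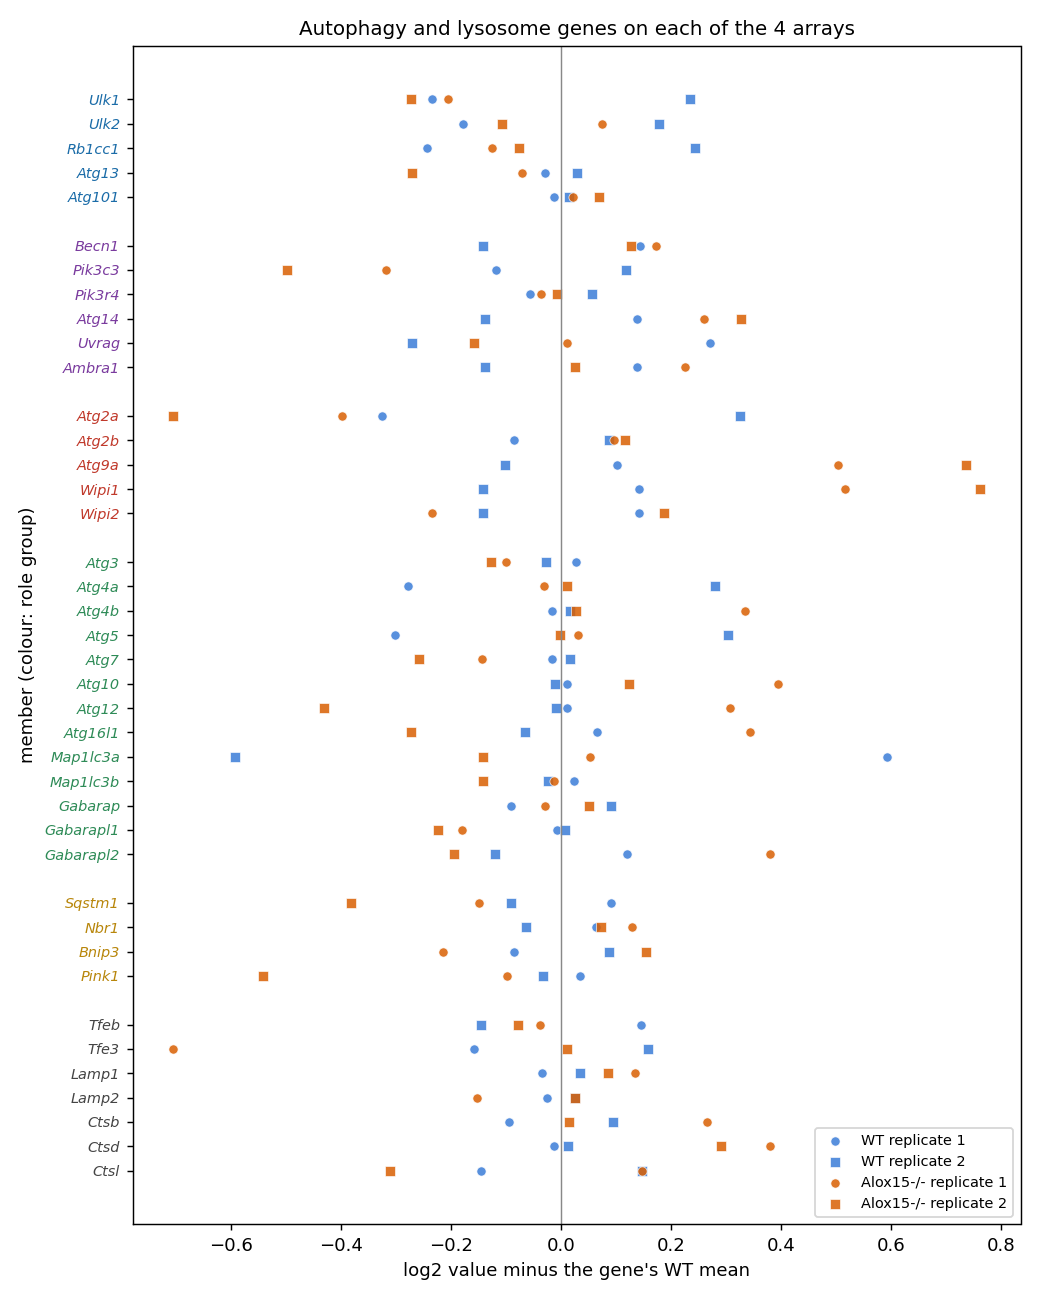
The value of each measured member on each array (log2 value minus the gene's WT mean, horizontal axis), by role group (label colour, vertical axis). The WT arrays are blue and the arrays labelled Alox15-/- orange, with circles for replicate 1 and squares for replicate 2. The orange points of Atg9a, Wipi1 and Ctsd lie to the right of both blue points and those of Pik3c3 to the left, while the points of 22 members overlap.

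The conjugation genes held 13 members, and 0 had an unadjusted limma p under 0.05. Their differences ran from -0.20 to 0.26, with 6 positive, 7 negative and a median of -0.01. Without Alox15-/- replicate 1 the median was -0.14. Atg7, the activating enzyme that serves both conjugation systems and whose loss from blood stem cells is known to impair them, read 7.90 and 7.93 in WT against 7.77 and 7.66 in those labelled Alox15-/-. The groups did not overlap, and the difference was -0.20 ± 0.13 (95% interval -0.53 to 0.13), or 0.01 over the mean of its 4 probe sets. The transfer enzyme gene for Atg12, Atg10, differed by 0.26 ± 0.15 (0.12 without Alox15-/- replicate 1), with 9.07 and 9.05 in WT against 9.45 and 9.18 in those labelled Alox15-/-. The transfer enzyme gene for ATG8, Atg3, differed by -0.11 ± 0.13. Atg5, which joins Atg12, differed by 0.01, Atg12 by -0.06 and Atg16l1, which places their conjugate on the membrane, by 0.04, each with overlapping groups. Atg12 read 8.68 and 7.94 in the arrays labelled Alox15-/-, against 8.38 and 8.36 in WT, so a small mean difference stood beside a wide spread. The proteases that trim and release ATG8 differed by -0.01 for Atg4a and 0.18 for Atg4b.

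The ATG8 genes themselves were near 0. Map1lc3b, the LC3 commonly used to count autophagosomes, read 11.86 and 11.81 in WT against 11.82 and 11.69 in those labelled Alox15-/-. The groups overlapped, and the difference was -0.08 ± 0.13 (95% interval -0.41 to 0.25). Map1lc3a was the least precise of all members, with 9.32 and 8.13 in WT around 8.78 and 8.58 in the arrays labelled Alox15-/-, and an interval of -1.02 to 0.93. Gabarap differed by 0.01 and Gabarapl2 by 0.09. Gabarapl1, also a target of FoxO factors, read 11.33 and 11.34 in WT against 11.16 and 11.11 in those labelled Alox15-/-. Replicates lay close together and the groups apart, but the difference was small, at -0.20 ± 0.13, and its second probe set gave -0.21 with groups that overlapped.

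The cargo receptor and mitophagy genes were 1 positive and 3 negative, with a median of -0.15 and 0 with an unadjusted limma p under 0.05. Sqstm1, the receptor p62 that carries ubiquitin-tagged proteins, read 9.32 and 9.14 in WT against 9.08 and 8.85 in those labelled Alox15-/-. The groups did not overlap, and the difference was -0.27 ± 0.15, with -0.33 at its second probe set. Leaving out WT replicate 1 gave -0.17, and leaving out Alox15-/- replicate 2 gave -0.15. Pink1, the kinase that marks damaged mitochondria, read 11.63 and 11.56 in WT against 11.49 and 11.05 in those labelled Alox15-/-. Both WT arrays lay higher, and most of the gap came from Alox15-/- replicate 2. The difference was -0.32 ± 0.19, was -0.10 without that array, and was -0.49 at the second Pink1 probe set. Nbr1, a receptor related to p62, differed by 0.10 ± 0.13, and Bnip3, a mitophagy receptor on the mitochondrial surface, by -0.03 ± 0.18. The 3 probe sets shared by Bnip3l and its pseudogene differed by 0.11, -0.08 and -0.13 and were not tested.

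**Figure D3:**
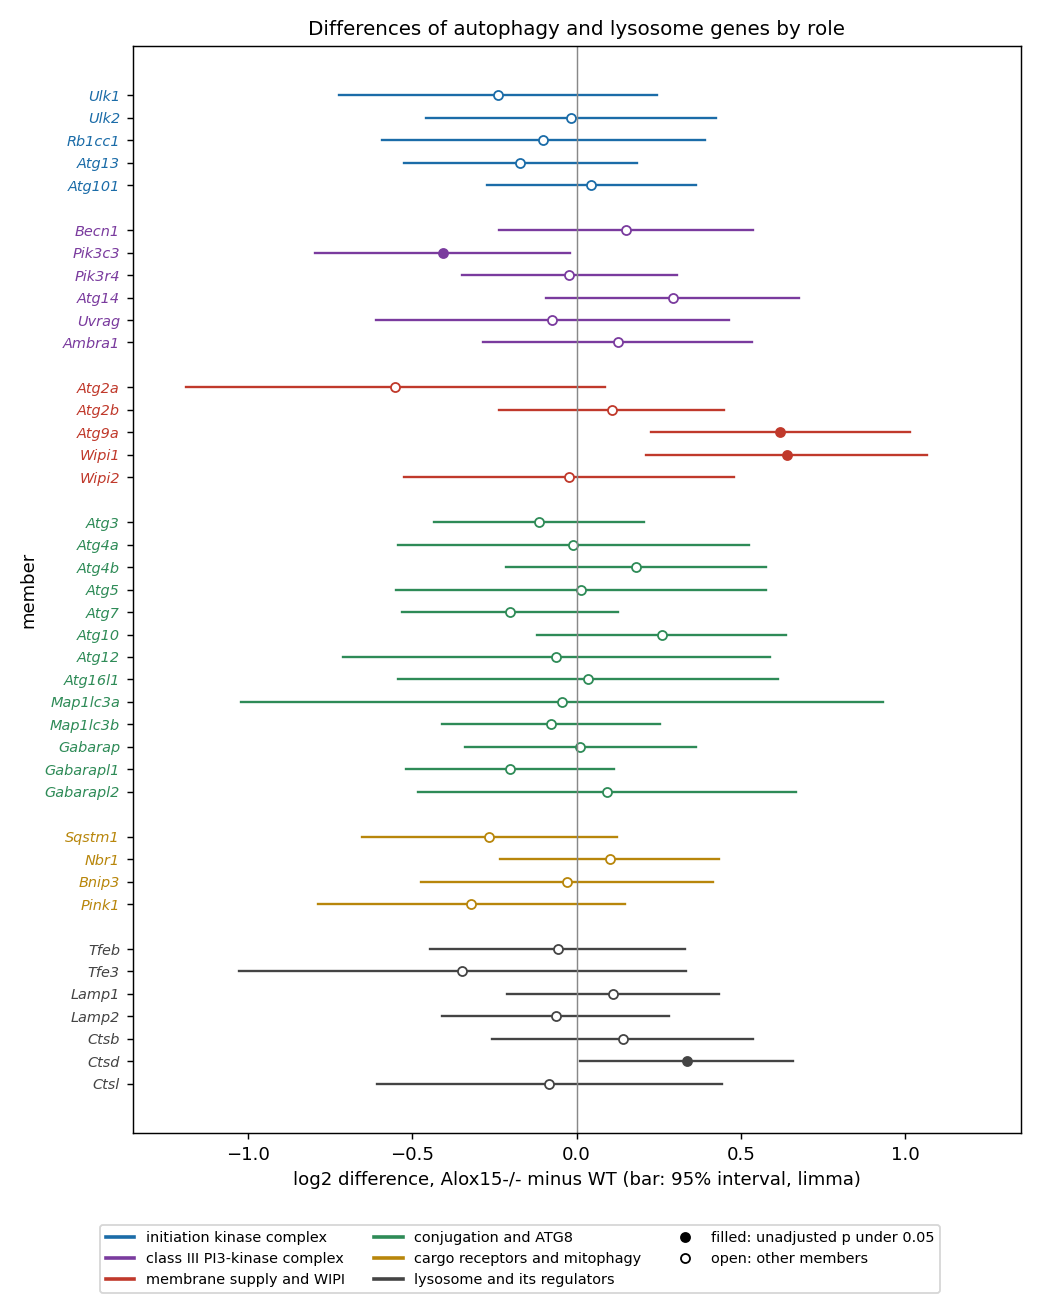
Log2 difference of each member, Alox15-/- minus WT (horizontal axis), with the 95% limma interval as a bar and role groups by colour (vertical axis). Filled points are the 4 members with an unadjusted p under 0.05, and the bars of the other 36 cross 0.

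The lysosome group held both master regulators and 5 of their best known products. Tfeb read 7.14 and 6.85 in WT against 6.96 and 6.92 in those labelled Alox15-/-, a difference of -0.06 ± 0.15 with overlapping groups. Tfe3 read 8.19 and 8.51 in WT against 7.65 and 8.36 in those labelled Alox15-/-. One array, Alox15-/- replicate 1, was low, and the difference of -0.35 ± 0.27 was 0.01 without it. The aspartic protease gene Ctsd, the main cathepsin D of lysosomes, read 9.40 and 9.42 in WT against 9.79 and 9.70 in those labelled Alox15-/-. The replicates agreed closely and the groups were apart, with a difference of 0.34 ± 0.13 (SE, n = 2 each), 1.26-fold, limma adjusted p = 0.634 and a 95% interval of 0.01 to 0.66. The cysteine protease genes did not share this order. Ctsb differed by 0.14 ± 0.16 and Ctsl by -0.08 ± 0.21, both with overlapping groups. Of the glycoproteins that line the lysosomal membrane, Lamp1 differed by 0.11 ± 0.13, with 11.56 and 11.63 in WT against 11.73 and 11.68 in those labelled Alox15-/-, and Lamp2 by -0.06 ± 0.14. The group's median was -0.06, with 3 positive and 4 negative, and was positive when any 1 array was left out, with values from 0.015 to 0.14.

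Tfeb and Tfe3 bind E-box letters in promoters, so the RefSeq promoter windows of the members (build GRCm38.p6, 250 bases before to 50 after the start) were searched. The motifs were CACGTG, TCACGTGA, which holds the first, and the full CLEAR element, which adds a G before and a C after TCACGTGA. Each reads the same on both strands. Only exact matches were counted, so variants of the CLEAR element were not sought. Of 42 members 34 had a window, and the other 8 are Atg12, Atg16l1, Becn1, Bnip3l, Ctsb, Map1lc3a, Pik3c3 and Rb1cc1. CACGTG lay in a window of 8 of 34 members (23.5%), beside 8.09% of all genes with a window, and in 3 of 6 lysosome genes. TCACGTGA lay in those of 2, Ctsd and Atg3 (5.88%, beside 1.12%), and the full element in 0 (beside 0.37%). In Lamp1 the 6 letters occur 4 times in a row of short steps before the start. The windows with matches before the start are printed 5′ to 3′ on the gene's strand, with CACGTG in capitals and bases of the transcript left out, because they show how the spacing differs between members.
Ctsd, chr7:142387900-142387945, minus strand: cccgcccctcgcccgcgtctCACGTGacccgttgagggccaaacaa
Lamp1, chr8:13159080-13159160, plus strand: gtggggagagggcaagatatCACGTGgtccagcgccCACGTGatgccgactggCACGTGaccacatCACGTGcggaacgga
Ctsl, chr13:64370731-64370770, minus strand: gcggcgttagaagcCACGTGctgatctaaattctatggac
Atg3, chr16:45158715-45158783, plus strand: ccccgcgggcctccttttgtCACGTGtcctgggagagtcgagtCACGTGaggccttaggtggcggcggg
Atg5, chr10:44268305-44268338, plus strand: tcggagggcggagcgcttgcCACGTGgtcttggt
Atg7, chr6:114670944-114670989, plus strand: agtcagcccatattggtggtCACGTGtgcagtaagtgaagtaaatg
Bnip3, chr7:138909589-138909634, minus strand: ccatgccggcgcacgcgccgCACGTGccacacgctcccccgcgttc

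The eighth gene, Atg14, has its match across the start itself. Ctsd also has a second match near the far end of its window. The 8 members with CACGTG were 4 positive and 4 negative, with a median difference of -0.01 and a range of -0.20 for Atg7 to 0.34 for Ctsd. The 25 measured members whose windows lack it were 10 positive and 15 negative, with a median of -0.02. A match is a description of the letters and says nothing of binding in these cells.

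The rest of the pathway was read in the same way. Of 149 genes in 8 further lists 138 were measured, and 0 passed the adjusted limma threshold in either direction. At an unadjusted p under 0.05 there were 7 higher and 4 lower (7.97%, against 7.77% of all genes). Their median difference was -0.02, with 64 positive and 74 negative. Lysosomal hydrolases had a median of 0.12, with 16 of 26 positive. Within them Naglu, which degrades heparan sulphate, read 5.92 and 5.85 in WT against 6.69 and 6.63 in those labelled Alox15-/-. Replicates agreed and the groups lay apart, with a difference of 0.78 (limma adjusted p = 0.388). Gla, alpha-galactosidase A, differed by 0.80, Sgsh, also of heparan sulphate breakdown, by 0.39 and Aga, which splits asparagine-linked sugars, by -0.35.

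Medians of these lists were small, and several turned sign under another setting. Of other cathepsins, 6 of 10 were positive with a median of 0.05, which ran from -0.04 to 0.15 without any 1 array, below 0 without WT replicate 2 or Alox15-/- replicate 1. Among them Ctsz differed by 0.38, Ctse by 0.37, Ctsh by -0.21 and, with overlapping groups, Ctsf by -0.60. Lysosomal membrane proteins had a median of -0.04, with 9 of 20 positive. It ran from -0.01 to 0.02 without any 1 array, above 0 without WT replicate 2 or Alox15-/- replicate 2. The chloride-proton exchanger gene Clcn7 differed by 0.42 and Gnptab, which makes the mannose 6-phosphate sorting tag, by 0.39. Laptm4a and Cd68 differed the other way, by -0.35 and -0.27. V-ATPase subunits, which acidify lysosomes, had a median of -0.05 with 7 of 16 positive, from -0.12 without Alox15-/- replicate 2 to -0.02 without WT replicate 2, and 0.08 at the second-highest probe set. Among them the membrane subunit gene Atp6v0a1 differed by -0.47. Autophagosome-lysosome fusion genes had a median of 0.07 with 8 of 13 positive, or 0.19 without WT replicate 2 and 0.01 without Alox15-/- replicate 1. Among them the tether subunit gene Vps11 differed by 0.32. Other cargo and mitophagy receptors had a median of -0.17 with 3 of 12 positive, or -0.06 without Alox15-/- replicate 2 and 0.01 at the second-highest probe set. Among them the mitochondrial receptor gene Fundc1 differed by -0.34. Other autophagy factors had a median of -0.06 with 5 of 17 positive, or -0.03 without Alox15-/- replicate 1. Among them Atg4c, a further ATG8 protease gene, differed by -0.57. Upstream sensing genes of the mTOR and AMPK pathways had a median of -0.12 with 10 of 24 positive, or -0.06 without WT replicate 2 and 0.06 at the second-highest probe set. Among them were Prkaa2, an AMPK catalytic subunit, at 0.38 and Tsc1, a brake on mTOR, at -0.22. None of the named genes passed the adjusted threshold.

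Probe sets of 1 gene often gave different answers. The 40 members had 92 single-symbol probe sets, and in a limma fit over all such probe sets 0 passed the adjusted threshold (beside 0.00572% of all probe sets) and 4 had an unadjusted p under 0.05 (beside 7.70% of all probe sets). These 4 were the probe sets used for Atg9a and Wipi1 and, of those not used, 1 each of Ulk2 and Ctsb. Pik3c3 and Ctsd were not among them, with an unadjusted limma p of 0.0515 and 0.0567 in that fit. Of 26 members with several, 19 had probe sets of both signs, against 56.2% of all genes with several. The exception in size was Ulk2, where 1 probe set that was not used read 6.40 and 6.11 in WT against 5.05 and 4.53 in those labelled Alox15-/-. The groups lay apart, with a difference of -1.47 ± 0.23 (SE, n = 2 each, limma adjusted p = 0.477), while the other 3 Ulk2 probe sets gave -0.10 to -0.02. That probe set lay below the highest bacterial control on both arrays labelled Alox15-/-, so its difference is a bound, at least 2.19-fold lower against that control. For Lamp2 the probe set used gave -0.06 and others gave 0.11, 0.45 and 0.50, and for Ctsb 1 probe set gave -0.54 beside 0.14 at the one used. All probe sets had 1 sign for Wipi1, Ulk2, Sqstm1, Pink1, Gabarapl1, Atg3 and Ctsl. For Wipi1 and Ctsl, 1 probe set each lay below the bacterial control on every array. The sources used here do not name the transcripts that each probe set reads.

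**Figure D4:**
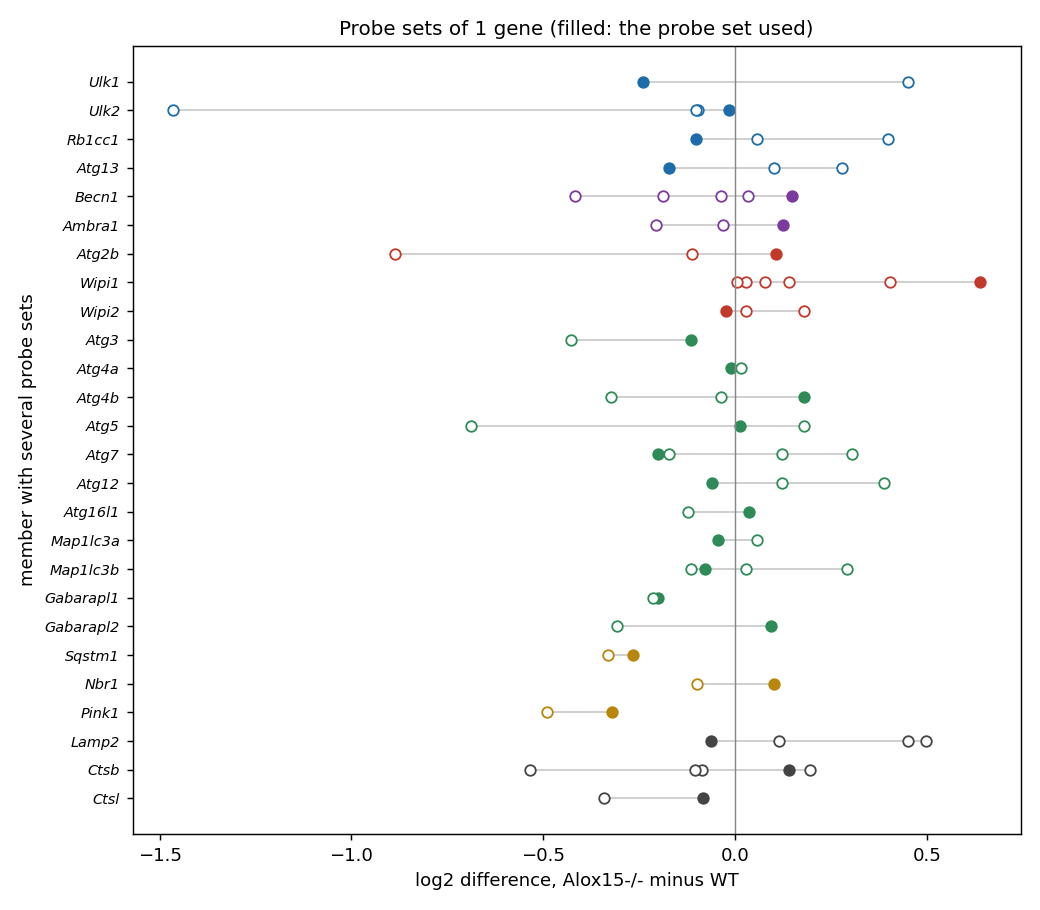
Log2 difference, Alox15-/- minus WT (horizontal axis), of every single-symbol probe set of the 26 members with several (vertical axis). Filled points are the probe sets used, and a grey line spans each gene's range, which for Ulk2 runs from -1.47, at a probe set below the bacterial control on both arrays labelled Alox15-/-, to -0.02.

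Alox15 lies on chromosome 11, and so do 6 measured members, placed by gene order in the RefSeq table. Gabarap is 15 measured genes from Alox15 and differed by 0.01. Ulk2 is 130 genes away on the same side and Sqstm1 304. Becn1, Nbr1 and Wipi1 lie 523, 535 and 662 genes away on the other side. Without these 6, the members' median was -0.04, and 3 of 34 (8.82%) had an unadjusted limma p under 0.05, beside 7.77% of all genes. Of the further lists, 12 genes lie on chromosome 11, among them Naglu, Atp6v0a1 and Sgsh at 506, 505 and 798 genes from Alox15. At an unadjusted limma p under 0.05 were 2 of these 12, and 9 of the 126 others, again beside 7.77% of all genes. The share among all measured genes of chromosome 11 was not taken.

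Lysosomes are abundant in myeloid cells, so the marker lists are given beside the members. Of granulocyte-monocyte progenitor genes, 14 of 15 measured were positive with a median of 0.54, and their mean level relative to all arrays was -0.41 and -0.27 in WT against 0.31 and 0.38 in those labelled Alox15-/-. Of mature neutrophil genes, 12 of 12 were positive with a median of 0.71, and their mean level was -0.91 and 0.06 in WT against 0.56 and 0.29 in those labelled Alox15-/-, with 2 of the 12 genes below the bacterial control on every array. For macrophage and monocyte genes 11 of 13 were positive (median 0.34), and for mast cell, basophil and eosinophil genes 10 of 11 (median 0.65). Of these genes, 1 of the 13 and 3 of the 11 lay below the bacterial control on every array. The myeloid lineage marker Itgam, which is in none of these lists, went the other way, at -0.51. Stem cell genes had a median of -0.29, with 13 of 17 negative. No gene of these lists passed the adjusted limma threshold. The mean level of the lysosome group was -0.05 and 0.04 in WT and 0.00 on both arrays labelled Alox15-/-, so its levels overlapped between the groups while those of the neutrophil and granulocyte-monocyte lists did not. The 26 lysosomal hydrolases of the further list did separate, with -0.11 and -0.03 in WT against 0.09 and 0.05 in those labelled Alox15-/-. The 16 V-ATPase subunits separated the other way, with 0.04 and 0.04 in WT against -0.01 and -0.07. Other cathepsins and lysosomal membrane proteins overlapped. Fusion and membrane supply genes also separated upward, and both cargo receptor lists, other autophagy factors and upstream sensing genes downward. The direction of the hydrolases was shared by the myeloid lists but not particular to them. B cell genes read -0.19 and -0.13 in WT against 0.08 and 0.24, and T and NK cell genes -0.07 and -0.04 against 0.03 and 0.08. Of the 9 genes in each of these lists, 1 and 3 lay below the bacterial control on every array. Erythroid and megakaryocyte genes overlapped, at -0.04 and 0.12 in WT against -0.08 and -0.01. The mean over all genes was -0.004 and -0.01 in WT against 0.01 and 0.004. By gene, 3 of 7 in the lysosome group and 16 of 26 hydrolases had the positive sign of the myeloid lists. So did 6 of 10 other cathepsins, 9 of 20 lysosomal membrane genes and 7 of 16 V-ATPase subunits. In the B cell list and in the T and NK cell list it was 7 of 9 each. In sorted cells in bulk, more cells of a type and more RNA per cell cannot be told apart, and the part of cell makeup in the differences of Ctsd and the hydrolases was not tested.

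**Figure D5:**
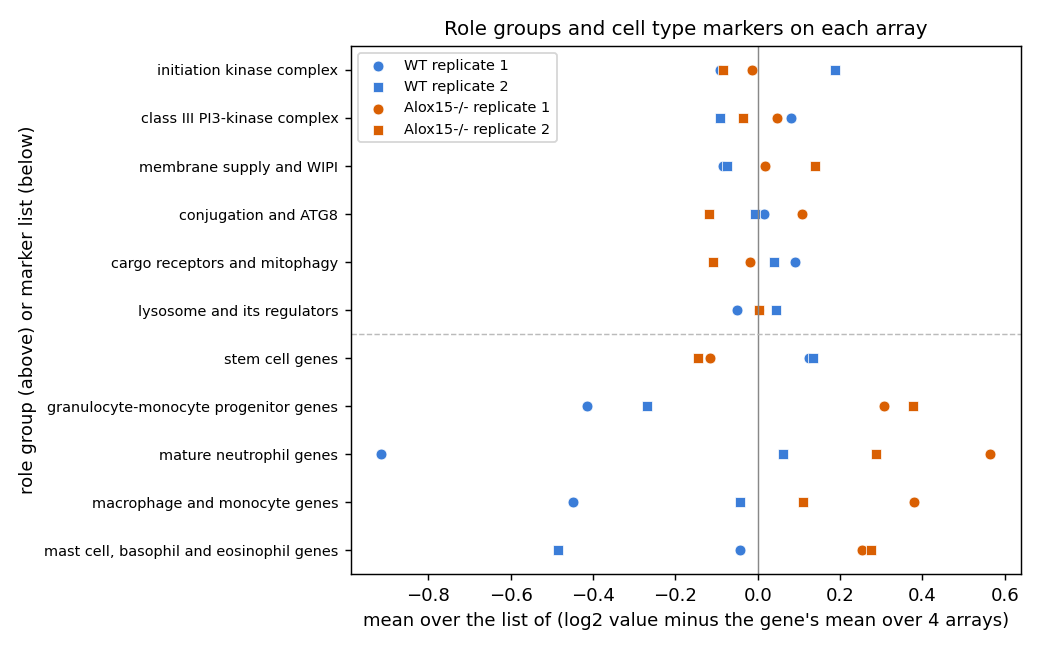
Mean over each list of the log2 value minus the gene's mean over the 4 arrays (horizontal axis), for the 6 role groups above the dashed line and 5 marker lists below it (vertical axis), with WT arrays in blue and arrays labelled Alox15-/- in orange. The role groups stay between -0.12 and 0.19, while mature neutrophil genes span -0.91 to 0.56.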

How the data were processed

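The deposited log2 values of 4 Affymetrix arrays were made by the authors with Affymetrix Expression Console 1.1 and RMA, per the submitters' processing notes. RMA's quantile step would remove a shift shared by most genes. Per the labels' protocols a whole-transcript sense kit made the targets, although these probe sets were designed for antisense ones. The arrays' number limits precision.

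Of 45101 probe sets, 64 were controls and left out, 34945 had 1 symbol in the platform annotation and 932 had several. The brightest single-symbol probe set stood for each of 18193 genes. Arrays labelled Alox15-/- were compared with WT, grouped by sample title, with limma 3.58.1 (R 4.3.3; moderated, two-sided, without a block) and Benjamini-Hochberg adjustment over all genes at 0.05. The code was tested on simulated data. Promoters came from RefSeq (GRCm38.p6). The members and lists were chosen with earlier results of these data known. Named genes were all members, Alox15, gate and lineage markers, up to 4 genes per further list by absolute moderated t, and further pathway genes with unadjusted p under 0.01 and no overlap. Alternatives covered normalization, dim genes, variance moderation, array weights, probe set choice, a replicate block and leaving out each array. Figures used matplotlib 3.10.9.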

Additional observations from a re-analysis of the deposited data

How the results depend on the processing

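No member and no further pathway gene passed the adjusted limma threshold under any of 15 other settings. Over these settings 13 of 40 members kept 1 sign, Atg9a, Wipi1, Ctsd and Pik3c3 among them, and 27 took both. A kept sign is a weak check. The settings for variance, array weights, block and dim genes left each difference as it was. Groups that do not overlap keep their sign without any 1 array. Atg9a, Ctsd and Pik3c3 have 1 probe set each, so probe set choice could not change their values. Members with an unadjusted p under 0.05 numbered 2 without variance moderation, 2 with a replicate block, 1 with the second-highest probe set, and 1 to 7 without any 1 array. Of all genes, 6.62% were under 0.05 without variance moderation, beside 5% of members. The shares were 7.29% and 5% with the block, and 7.43% and 2.5% with the second-highest probe set. A mean-dependent prior variance raised the count to 6 members (15%), beside 8.68% of all genes. Wipi1 differed by 0.08 at its second-highest probe set. All genes past the threshold numbered 22 with a mean-dependent prior variance, 2 with the second-highest probe set and 0 without any 1 array. The Alox15 difference of 6.22 lost its call without variance moderation (limma adjusted p = 0.703) and without any 1 array, where it ran from 6.08 to 6.36 and a lone array was assumed to vary like the other group. The initiation median was 0.0696 with the mean of all probe sets, 0.0575 with the second-highest, and -0.20 to 0.0588 without any 1 array. The lysosome median was 0.0231 without the lowest 50 percent of genes and 0.015 to 0.135 without any 1 array. Without any 1 array, medians ran from -0.0028 to 0.229 for the class III complex, 0.0963 to 0.193 for membrane supply, -0.141 to 0.03 for conjugation and -0.158 to -0.124 for receptors. The causes were not tested. The labels name no batch for same-numbered arrays. The correlation of their deviations across genes was -0.02, but 1 such value cannot decide whether they share a batch. No member was called with or without the block.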
